A study of Mus musculus with 10 samples.

Results

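The segment described here is the stretch of mouse chromosome 12 that holds Ahr, the gene of the aryl hydrocarbon receptor, together with 15 Mb on either side of it (GRCm38, chr12:20497974-50535038). Peaks of all 10 libraries that shared at least 1 bp were merged into 85680 consensus regions, and the 632 regions inside these bounds were taken as its members, of which 406 lay left of Ahr (at lower coordinates), 6 in Ahr and 220 right of it. The other 2845 regions of chromosome 12 served for comparison. Open chromatin was measured by Omni-ATAC-seq in colon organoids of C57BL/6 background mice. The AHR KO organoids came from mice with Villin-Cre, a recombinase driven in intestinal epithelium, and a floxed Ahr allele, and the WT organoids from littermates. WENR medium contained Wnt3a with EGF, Noggin and R-spondin, and also SB202190, an ALK5 inhibitor and nicotinamide. The ENR medium listed by the study had neither Wnt3a nor these additives. The d4 ENR organoids had been kept in it for 4 days so that they differentiated. There were 2 WT and 3 AHR KO libraries in WENR, and 3 WT and 2 AHR KO libraries in d4 ENR. Organoids were derived from colon crypts, and viable cells were sorted before tagmentation.

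AHR, once bound by a ligand, enters the nucleus, pairs with ARNT on DNA and regulates genes in response to dietary and microbial compounds, among other places in the intestinal epithelium. Tagmentation cuts DNA that is free of nucleosomes, so a peak marks a promoter, enhancer or other accessible element. Because a targeted allele is inherited together with the DNA beside it, sequence linked to Ahr can differ between knockout and wildtype animals. At these members, an effect of such linked sequence and an effect of losing the receptor cannot be told apart, since both go with the genotype.

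The sequences that carry the differences are given first, from the C57BL/6J reference genome (GRCm38) and outside annotated exons. Between 20.6 and 23.8 Mb, the 3 members past the test in the mean of both media and the 3 confined to a genotype in both media were GC-rich and shared long stretches letter for letter. The first stretch below joins the member at the Asap2 promoter, where AHR KO libraries had less signal, to a member at chr12:23799984-23801316, where only AHR KO libraries had a peak. It is 140 bases long. The second, of 94 bases, joins the member at chr12:20614494-20615840, lower in AHR KO, to the one at chr12:22030250-22031298, called only in AHR KO.
Asap2 promoter member, chr12:20991019-20991158, plus strand, the same letters as chr12:23800236-23800375 on the minus strand: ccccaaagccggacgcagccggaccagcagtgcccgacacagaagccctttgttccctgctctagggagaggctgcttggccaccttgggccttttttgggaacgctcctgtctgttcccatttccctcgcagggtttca
Member 375 kb from Asap2, chr12:20614590-20614683, plus strand, the same letters as chr12:22031205-22031298 on the minus strand: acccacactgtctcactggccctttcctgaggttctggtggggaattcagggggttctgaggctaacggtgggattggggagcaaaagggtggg

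The other 7 members chosen by the same criteria were nearly unique, with 0 to 6.18% of their 31-base words at more than 1 place in the genome. For each of the 7, the 200-base window with the most matches to 5 searched motifs is shown, with matches in capitals on either strand. The motifs were TNGCGTG (AHR:ARNT), CATTCC (TEAD), TGANTCA (AP-1), CAAAGTCCA (HNF4) and CCGGAAGT (ETS), and each was counted separately.
Ahr intron, peak only in AHR KO, chr12:35523738-35523937, plus strand: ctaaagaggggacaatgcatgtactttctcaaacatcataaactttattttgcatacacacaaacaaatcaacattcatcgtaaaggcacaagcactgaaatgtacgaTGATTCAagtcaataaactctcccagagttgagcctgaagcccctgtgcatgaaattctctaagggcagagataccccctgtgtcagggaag
Trappc12 intron, peak only in AHR KO, chr12:28694483-28694682, plus strand: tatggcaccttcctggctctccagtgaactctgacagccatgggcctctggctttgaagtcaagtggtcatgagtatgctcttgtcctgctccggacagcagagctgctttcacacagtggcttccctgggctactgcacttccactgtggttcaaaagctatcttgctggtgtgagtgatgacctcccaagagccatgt
Prkar2b intron, peak only in WT, chr12:32015414-32015613, plus strand: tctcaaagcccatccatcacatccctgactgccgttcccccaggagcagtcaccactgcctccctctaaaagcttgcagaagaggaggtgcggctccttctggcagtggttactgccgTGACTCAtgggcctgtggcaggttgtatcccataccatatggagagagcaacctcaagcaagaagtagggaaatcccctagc
4389 bp upstream of Slc26a4, peak only in WT, chr12:31564115-31564314, plus strand: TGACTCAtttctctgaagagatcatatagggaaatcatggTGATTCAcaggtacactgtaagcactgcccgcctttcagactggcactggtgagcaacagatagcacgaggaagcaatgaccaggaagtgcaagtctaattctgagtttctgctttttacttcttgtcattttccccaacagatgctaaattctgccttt
Prkar2b promoter, upstream of the start, higher in AHR KO, chr12:32061297-32061496, plus strand: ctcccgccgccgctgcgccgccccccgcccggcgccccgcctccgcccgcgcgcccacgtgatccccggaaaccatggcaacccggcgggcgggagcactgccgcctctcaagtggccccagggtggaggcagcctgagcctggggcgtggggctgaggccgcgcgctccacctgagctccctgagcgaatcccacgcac
213 kb from Id2, higher in AHR KO, chr12:25309464-25309663, plus strand: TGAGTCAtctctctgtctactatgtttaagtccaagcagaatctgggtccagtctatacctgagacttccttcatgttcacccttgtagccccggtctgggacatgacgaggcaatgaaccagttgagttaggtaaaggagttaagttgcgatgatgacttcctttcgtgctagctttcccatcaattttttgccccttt
149 kb from an Ahr start, lower in AHR KO, chr12:35376564-35376763, plus strand: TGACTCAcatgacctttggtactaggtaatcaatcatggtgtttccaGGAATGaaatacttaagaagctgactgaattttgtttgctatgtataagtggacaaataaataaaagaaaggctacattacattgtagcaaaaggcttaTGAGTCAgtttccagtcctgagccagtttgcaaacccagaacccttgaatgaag
The windows show AP-1 letters in members of both directions. TGANTCA occurred in 6 of the 15 members named in this way or lying at Ahr, beside 42.8% of the 65244 regions of the same range of widths (403 to 2307 bp) in the whole genome. The AHR:ARNT letters occurred in 1 of the 15, the Ahr promoter, beside 12.2% of those 65244 regions. Over all widths they were found in 9.18% of the 632 members and 11.9% of all regions.

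The libraries held 30354729 to 49126792 fragments and 33433 to 65308 peaks. The d4 ENR libraries had 14.1 to 44.2% of their coverage inside peaks, and the WENR libraries 63.0 to 68.6%. In d4 ENR, fragments averaged 156 to 200 bp in WT and 202 to 221 bp in AHR KO, and the coverage inside peaks was 14.1 to 30.9% in WT and 33.8 to 44.2% in AHR KO. The part of these differences in the d4 ENR results was not tested. Promoters of 9 of 10 colon epithelial marker genes had a peak in all 10 libraries (Krt20 in 1 library). None of 5 leukocyte marker promoters did in any library, while the fibroblast marker promoters of Col1a1 and Pdgfra had a peak in all 10 and those of Col1a2, Col3a1 and Dcn in none. Of 4 endothelial marker promoters, that of Kdr had a peak in 5 libraries and those of Pecam1, Cdh5 and Tie1 in none.

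The members lay farther from genes than other regions. Their median width was 805.5 bp and their median distance to a protein-coding transcription start was 27697 bp, compared with 857 bp and 14437 bp for the rest of chromosome 12. Of the members, 11.6% lay at promoters, 5.22% in exons, 44.5% in introns and 38.8% between genes, and 160 (25.3%) had a peak in all 10 libraries, against 30.4% for the rest of the chromosome. In WENR, WT libraries had a peak at 62.5 and 66.0% of the members and AHR KO libraries at 68.7, 68.2 and 68.2%. The groups did not overlap, and the shares for the rest of the chromosome (70.9 and 74.0% in WT, 73.7, 71.6 and 74.9% in AHR KO) did overlap. Relative to the rest of chromosome 12, the share of members with a peak differed by -8.40 and -7.97 percentage points in WT and by -5.07, -3.37 and -6.67 points in AHR KO. In d4 ENR the order was the opposite, with -1.55, -3.11 and -2.37 points in WT and -5.62 and -4.30 points in AHR KO. With 10 arrangements of the labels in a medium, no 2-sided exact permutation test could reach a p below 0.2, so these differences were not tested.

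Ahr itself had more accessible elements in AHR KO organoids (plot of peaks at Ahr). Peaks covered 2142 and 2544 bp of the gene and 5 kb on each side in WT WENR, and 5130, 5346 and 7017 bp in AHR KO WENR. The WT d4 ENR libraries had 1216, 1595 and 1318 bp there, and the AHR KO d4 ENR libraries 3541 and 3250 bp. The groups did not overlap in either medium. More covered bases in every AHR KO than in every WT library were common among the 17290 protein-coding genes with a peak. They were found at 11.8% of these genes in WENR, 54.4% in d4 ENR and 6.54% in both media. At Ahr the mean difference over both media was 2754 bp (exact 2-sided permutation test, p = 0.02, the smallest its 100 arrangements allow). The adjusted p over 17290 protein-coding genes was 0.304, the smallest that any gene reached in this design. When every list was shortened to the 33433 strongest peaks, the difference was 699 bp (exact permutation p = 0.06). Leaving out either WT WENR or either AHR KO d4 ENR library left 40 arrangements and a p of 0.05, with differences between 2653 and 2854 bp.

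The Ahr promoter (chr12:35534094-35535580, Ahr is transcribed from the minus strand) had a peak in all 10 libraries. Its normalised pileup was 220 and 224 in WT WENR, 195, 188 and 173 in AHR KO WENR, 165, 186 and 178 in WT d4 ENR and 172 and 170 in AHR KO d4 ENR. It was not past the test (log2 difference over both media -0.15 ± 0.059 SE, limma adjusted p = 0.314). Downstream, an element in the second intron (chr12:35522914-35524762, 11.2 kb from the start) had peaks in all 5 AHR KO libraries and in no WT library. Its mean pileup, the number of fragments over a base, was 37.3, 52.9 and 78.0 in AHR KO WENR and 16.7 and 15.3 in AHR KO d4 ENR. The lowest pileup listed for any peak of the WT libraries was 15 in WENR and 9 to 11 in d4 ENR, so the d4 ENR peaks were weak. In AHR KO WENR the fold enrichment of this element over local background was only 2.45, 2.25 and 2.05. Its peaks there ranked at the 19.8th, 23.3rd and 27.7th percentile of the lists by significance. A neighbour at chr12:35520470-35521652 was called in the 3 AHR KO WENR libraries (36.2, 62.5 and 115.9) and in AHR KO d4 ENR replicate 2 (13.6). A further element at chr12:35527249-35528121, whose centre lies 906 bp upstream of an internal annotated start, was called in both genotypes in WENR (48.5 and 51.2 against 50.3, 63.5 and 70.6). In d4 ENR it was called in both AHR KO libraries (30.05 and 27.99) and in 1 of 3 WT libraries (9.13). Its fold enrichment in WENR was 5.23 and 4.97 in WT and lower in AHR KO, at 4.01, 3.62 and 2.66. The lists hold peaks only, so the deletion in Ahr could not be read from them.

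**Figure D1:**
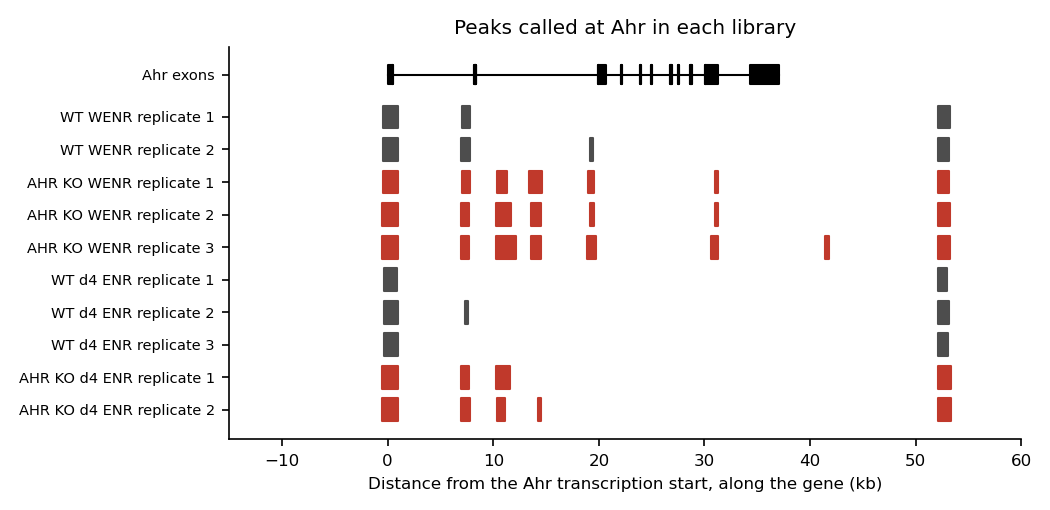
Peaks called at Ahr in each library, with distance from the Ahr transcription start in kb on the x axis and a row for each library (grey, WT, red, AHR KO, black, annotated exons of all transcripts). All 10 libraries have the promoter peak at 0 kb, whereas the peaks near 11.2 kb are in the 5 AHR KO libraries alone.

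Along the segment, members with a peak in all libraries of a genotype and none of the other were counted in each medium. In WENR, 27 of the 549 members with a WENR peak were AHR KO-only (4.92%), against 1.37% of regions on the rest of chromosome 12 and 1.34% of all regions. A further 14 were WT-only (2.55%), against 1.84% on the rest of the chromosome and 0.860% of all regions. In d4 ENR, 27 of 465 members were AHR KO-only (5.81%), against 4.40% on the rest of chromosome 12 and 3.67% of all regions. There, 6 members were WT-only (1.29%), against 0.375% on the rest of the chromosome and 0.112% of all regions. These shares have no replicate test, and they moved with the length of the lists. With each list shortened to 33433 peaks, AHR KO-only members in WENR fell to 7 of 255 (2.75%, against 1.64% on the rest of chromosome 12), and WT-only members in WENR stood at 13 (5.10%, against 2.90%). The same setting gave 18 AHR KO-only members in d4 ENR (5.98%, against 2.12%) and 10 that were WT-only (3.32%, against 0.876%). Requiring 1 library less raised the counts, which are given without a share over all regions. AHR KO-only in WENR rose to 41 without AHR KO WENR replicate 1 and 43 without WT WENR replicate 2. AHR KO-only in d4 ENR rose to 68 without AHR KO d4 ENR replicate 1 and 50 without WT d4 ENR replicate 3. WT-only in WENR rose to 24 to 26 without AHR KO WENR replicate 1 or either WT WENR library. WT-only in d4 ENR rose to 19 without AHR KO d4 ENR replicate 2 and 21 without WT d4 ENR replicate 1.

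The AHR KO-only members in WENR lay mainly left of Ahr, 22 of 406 members there, 3 of the 6 in Ahr and 2 of 220 on the right. Within 1 Mb left of the Ahr start, 8 of 48 members with a WENR peak were AHR KO-only, and 1 of 43 within 1 Mb on the right was. Of these 8, 3 were in Ahr, 1 was in an exon of Snx13, which encodes a sorting nexin, and 4 were between Snx13 and Ahr, at chr12:35203524-35203948, chr12:35228757-35229800, chr12:35264122-35266056 and chr12:35283434-35284345. They were named after their values were seen. In d4 ENR, 3 of 28 members within 1 Mb left and 4 of 29 within 1 Mb right were AHR KO-only. In the block from 10 to 15 Mb left of Ahr, 10 of 125 members in WENR and 10 of 115 in d4 ENR were AHR KO-only. Several members in both counts were sequence in several copies, as counted below for the whole segment. From 5 to 10 Mb on the right no member was AHR KO-only in WENR and 4 of 70 were WT-only, all nearest to Stxbp6.

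**Figure D2:**
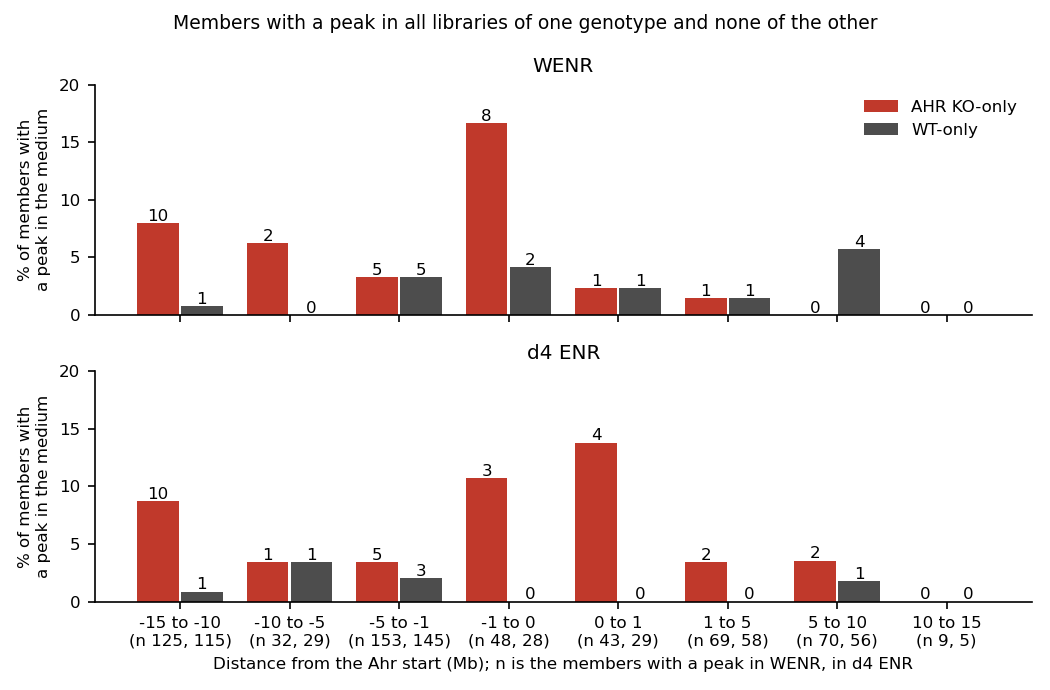
Share of members that were AHR KO-only (red) or WT-only (grey) in WENR (top) and d4 ENR (bottom) by distance from the Ahr start in Mb, as a percentage of the members with a peak in that medium, with their number above each bar. The tallest WENR bar is the 8 AHR KO-only members of 48 within 1 Mb left of Ahr.

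The 67 members with such a pattern in either medium were alike in width and base composition to the others. They had a median width of 805 bp and a median of 44.3% GC, compared with 806 bp and 45.0% for the other 565. They lay farther from genes, with a median distance of 44660 bp against 26476 bp, and 6 of the 67 were promoters. The AHR:ARNT letters were in 2 of the 67 and in 9.91% of the other 565, and the AP-1 letters in 37.3 and 45.1%. The WT-only members in WENR were narrow, with a median of 370 bp, compared with 722 bp for the AHR KO-only members.

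Patterns that held in both media were rare genome-wide. There were 5 AHR KO-only members in both (0.791% of 632), against 4 of 2845 on the rest of chromosome 12 (0.141%) and 0.0444% of all regions. There were 2 WT-only members (0.316%), against 1 on the rest of the chromosome (0.0351%) and 0.00584% of all regions. Without AHR KO d4 ENR replicate 1 the 5 became 13, and without WT d4 ENR replicate 1 the 2 became 3. The 5 were 18.5% of the AHR KO-only members of WENR and of d4 ENR alike. One was the Ahr intron element. Another lay in an intron of Trappc12 (chr12:28694331-28694834), which encodes a subunit of a vesicle-tethering complex. Its pileup was 28.6, 38.7 and 57.5 in AHR KO WENR and 20.7 and 19.9 in AHR KO d4 ENR. The remaining 3 were the GC-rich members at chr12:22030250-22031298, chr12:22156221-22157102, at the lincRNA Gm4425, and chr12:23799984-23801316, at the processed pseudogene Gm47437. At the first of these the pileup was 51.8, 84.6 and 92.9 in AHR KO WENR and 41.0 and 45.4 in AHR KO d4 ENR, which placed it between the 70th and 80th percentile of the peaks of those lists by significance.

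Of the 2 WT-only members, the stronger was in the second intron of Prkar2b (chr12:32015313-32015715), the gene of a regulatory subunit of protein kinase A. Its pileup was 203 and 182 in WT WENR and 32.3, 46.7 and 55.4 in WT d4 ENR. No AHR KO library had a peak there. The lowest pileup listed anywhere in those libraries was 13 to 15 in WENR and 11 to 12 in d4 ENR. Peaks were called against local background, so these values do not give the threshold at this site. In WENR the element ranked at the 74th and 69th percentile of the WT lists. The other lay 4389 bp upstream of Slc26a4, which encodes the anion exchanger pendrin (chr12:31563988-31564729), with a pileup of 50.2 and 65.0 in WT WENR and 13.6, 14.6 and 27.9 in WT d4 ENR.

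Prkar2b gathered differences of both directions (plot of peaks at Prkar2b). Of its 14 members, counted with 5 kb on each side, 5 had a genotype pattern, namely the WT-only intronic element and 4 that were AHR KO-only in WENR. These 4 lay 2.54 kb before its start, and 3.78, 33.6 and 69.0 kb after it. The strongest, at 3.78 kb (chr12:32057183-32057848), had a pileup of 67.6, 74.3 and 107.4 in AHR KO WENR and 17.3 in AHR KO d4 ENR replicate 2. The member next to the WT-only element on the side of the gene start, at 43.3 kb (chr12:32017130-32018929), had a peak in all 10 libraries. Its pileup was 225 and 194 in WT WENR and 197, 225 and 257 in AHR KO WENR, so the groups overlapped there. Peaks covered 5189 and 5774 bp of Prkar2b in WT WENR, 7943, 8531 and 9598 bp in AHR KO WENR, 3783, 3523 and 3891 bp in WT d4 ENR and, of AHR KO d4 ENR, 4054 and 5034 bp (mean difference 2010 bp, exact permutation p = 0.02, adjusted p = 0.304).

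**Figure D3:**
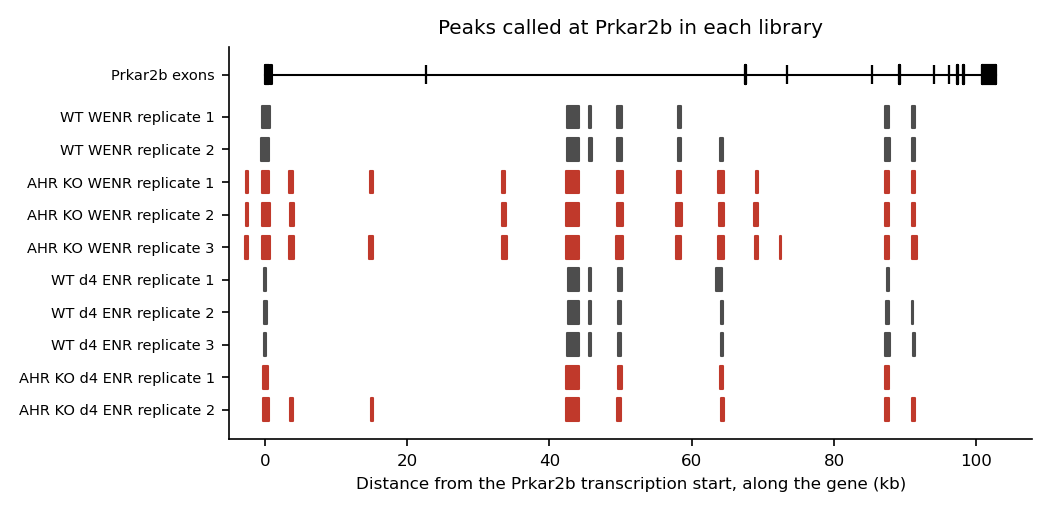
Peaks called at Prkar2b in each library, with distance from its transcription start in kb on the x axis (grey, WT, red, AHR KO, black, exons). The narrow peak at 45.8 kb is in the 5 WT libraries alone, and the peaks at 3.78, 33.6 and 69.0 kb are in all AHR KO WENR libraries and in no WT library.

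Signal was compared at the 28205 regions with a peak in all 10 libraries, of which 160 were members and 864 lay on the rest of chromosome 12. Pileup was quantile-normalised over the libraries and tested with limma on the log2 scale, adjusted over all 28205. In the mean of both media, 2 members were higher in AHR KO (1.25%, against 0.579% on the rest of chromosome 12 and 0.0851% of all) and 4 were lower (2.50%, against 1.04% and 0.181%). Together these were 3.75% of the members, compared with 1.62% of the rest of the chromosome and 0.202% of the regions on other chromosomes. At an unadjusted p under 0.05 the shares were 30.0, 16.4 and 11.98%. All 6 lay left of Ahr. So did most members tested, with 39, 9, 57 and 9 in successive blocks left of the Ahr start and 10, 18, 17 and 1 right of it. Each of the 6 had the same sign in both media, which selection by the mean favours. All 14 regions past the test on the rest of chromosome 12 and all 55 on other chromosomes did too. Of those 55, 4 lay on chromosome Y, where only 6 regions were tested, and the cause was not tested. The differences on chromosome 12 did not stop at the bounds (plot along chromosome 12). A region 0.3 Mb below them, at chr12:20196146-20197693, was the most increased of the chromosome (log2 1.41, limma adjusted p = 9.05e-06), and the 14 regions past the test outside the segment lay up to 49.3 Mb from Ahr. None of the 313 regions tested farther than 50 Mb was past it.

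**Figure D4:**
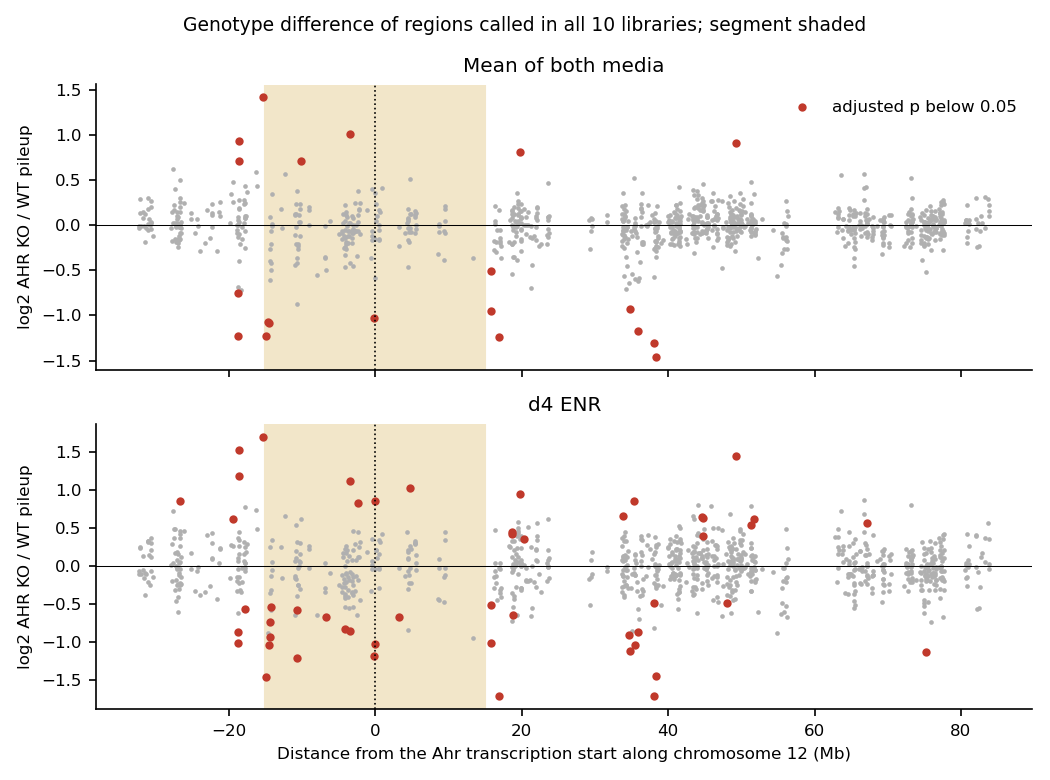
Log2 ratio of normalised pileup, AHR KO over WT, for the 1024 regions of chromosome 12 called in all 10 libraries, by distance from the Ahr start in Mb, as the mean of both media (top) and in d4 ENR (bottom). Red points have a limma adjusted p below 0.05 (20 in the top panel, of which 6 lie in the shaded segment), and the dotted line marks Ahr.

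Among the 160 members tested, the 3 nearest the left bound fell together. At chr12:20614494-20615840 the normalised pileup was 104 and 97.9 in WT WENR, 66.9, 52.7 and 36.5 in AHR KO WENR, 115, 91.2 and 114 in WT d4 ENR and 33.3 and 44.6 in AHR KO d4 ENR. The groups did not overlap in either medium (log2 -1.23 ± 0.15 SE, limma adjusted p = 0.00313). At the promoter of Asap2 (chr12:20989975-20991280), which encodes an ArfGAP of the cell cortex, the values were 83.5 and 84.2, then 55.6, 38.4 and 26.7, in WENR, and 64.8, 87.6 and 84.7, then 41.7 and 34.5, in d4 ENR. It fell by 1.08 on the log2 scale (SE 0.17, limma adjusted p = 0.0156). The third, at chr12:20920208-20921774 over the pseudogenes 3110053B16Rik and Zfp125, fell by 1.07 (SE 0.17, limma adjusted p = 0.0176). Their local background, which is the pileup divided by the fold enrichment, moved along with it. It differed by -1.03, -0.97 and -1.05 on the log2 scale in the same order, and with fold enrichment in place of pileup the 3 differences were -0.19, -0.16 and -0.06, none past the test (limma adjusted p between 0.418 and 0.677).

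These 3 members and the 3 GC-rich AHR KO-only members were sequence in several copies. Between 54.2 and 90.6% of their 31-base words occurred at more than 1 place in the reference genome, with a median of 2 to 6 places, and their GC content was 64.8 to 69.3%. Of the 632 members, 40 had at least 50% such words, and 34 of the 40 lay below 25 Mb, among 108 members there. Of these 40, 6 had a peak in all 10 libraries and 3 of the 6 were past the test, compared with 3 of 154 (1.95%) among the other members. Likewise, 3 of the 40 and 4 of the other 592 (0.676%) had the same genotype pattern in both media. On the rest of chromosome 12 these were 1 of 63 and 4 of 2782. In WENR alone, 7 AHR KO-only and 3 WT-only members were among the 40, and 20 and 11 among the other 592. In d4 ENR alone these were 6 and 1 among the 40, and 21 and 5 among the other 592. The aligner's placing of reads from such copies was not tested.

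The other 3 members past the test were nearly unique, with 0.0541 to 1.98% of repeated words. The Prkar2b promoter (chr12:32060578-32061768) had 33.9 and 37.0 in WT WENR, 54.6, 73.0 and 74.9 in AHR KO WENR, 21.7, 16.9 and 20.03 in WT d4 ENR and 39.4 and 44.9 in AHR KO d4 ENR. It rose by 1.01 on the log2 scale (SE 0.13, limma adjusted p = 0.00356), and no value of a group overlapped the other genotype in either medium. Before normalisation the WT d4 ENR pileup was 12.15, 10.06 and 14.12, near the lowest listed for any peak of those libraries (11, 9 and 10). The member 213 kb from Id2 (chr12:25308911-25310788), in an intron of the lincRNA Gm36723, rose by 0.71 (SE 0.11, limma adjusted p = 0.0156), from 29.0 and 30.5 to 50.3, 60.7 and 45.8 in WENR, and from 47.9, 44.8 and 52.2 to 71.7 and 76.7 in d4 ENR. Id2 encodes an inhibitor of basic helix-loop-helix factors. The intergenic member at chr12:35376157-35378463, beyond the end of Ahr, fell by 1.03 (SE 0.18, limma adjusted p = 0.0257). It had 58.3 and 59.3 in WT WENR, 36.6, 30.7 and 29.3 in AHR KO WENR, 30.1, 58.0 and 57.6 in WT d4 ENR and 22.2 and 18.9 in AHR KO d4 ENR. It holds 5 AP-1 and 3 TEAD matches over 2307 bp. The local background of these members also differed, by 0.60 at the Prkar2b promoter, 0.28 at the member near Id2 and -0.47 at the intergenic member on the log2 scale. With fold enrichment in place of pileup, the member near Id2 stayed past the test (log2 0.46, limma adjusted p = 0.0470), while the Prkar2b promoter (log2 0.31, limma adjusted p = 0.149) and the intergenic member (log2 -0.65, limma adjusted p = 0.104) did not.

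**Figure D5:**
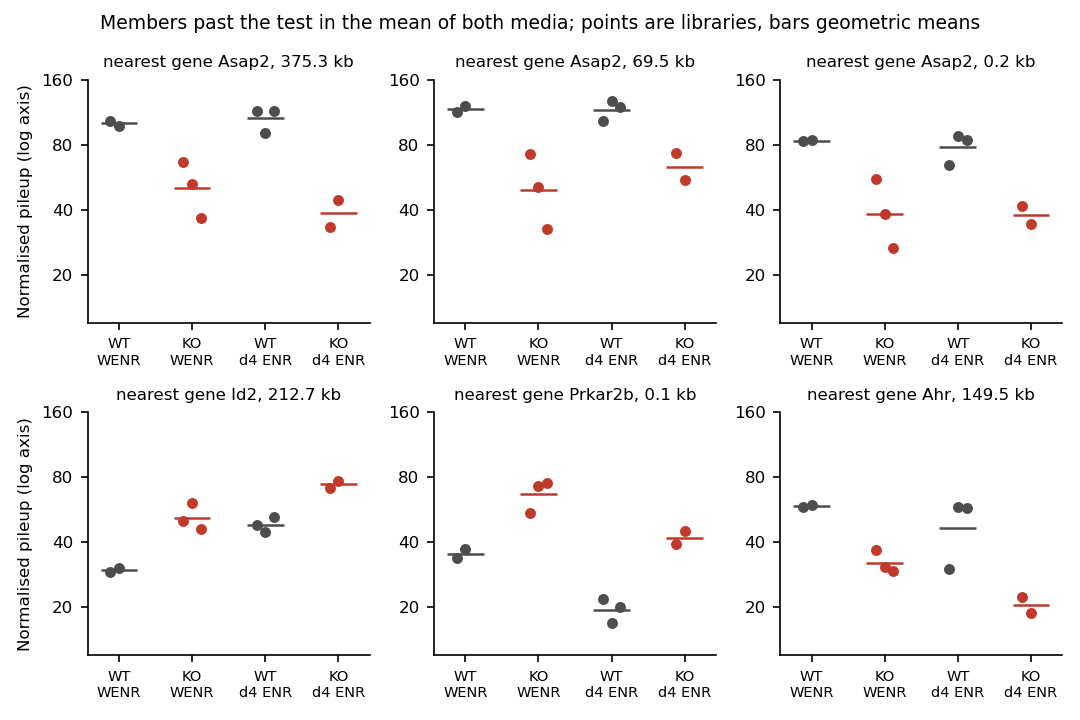
Normalised pileup (log axis) of the 6 members past the test in the mean of both media, with a point for each library and a bar for the geometric mean of each group, titled by the nearest protein-coding gene and the distance to its nearest start. In every panel the WT points (grey) and AHR KO points (red) of a medium do not overlap. The members were chosen by their genotype difference in the mean of both media.

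The count depended on single libraries. The member at chr12:20614494 was past the test whichever library was left out (limma adjusted p between 0.00142 and 0.0356), and the Prkar2b promoter missed it without WT WENR replicate 1 (limma adjusted p = 0.0545). The other 4 missed it without either WT WENR library, AHR KO WENR replicate 2, either AHR KO d4 ENR library or WT d4 ENR replicate 2, and the member at chr12:35376157 also without AHR KO WENR replicate 3. Without WT d4 ENR replicate 1, the library with the fewest peaks, 198 members were tested, of which 7 were higher (3.54%, against 405 of the 35321 regions then tested) and 20 lower (10.1%, against 354 of 35321). On the rest of chromosome 12 the shares were then 2.42 and 2.78%.

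Within WENR no member passed the limma test, against 3 regions higher (0.0106% of all) and 9 lower (0.0319%), although 29 of the 160 (18.1%) had an unadjusted p under 0.05, compared with 4.41% of all regions. Within d4 ENR 4 members were higher in AHR KO (2.50%, against 1.78% of all) and 13 lower (8.12%, against 1.26% of all), and the rest of chromosome 12 had 2.08% and 1.85%. With fold enrichment in place of pileup, 10 were higher (6.25%, against 3.01% on the rest of chromosome 12 and 3.16% of all). Under that setting 4 were lower (2.50%, against 3.24 and 2.63%), so the lower members were not in excess. Without AHR KO d4 ENR replicate 1, or without WT d4 ENR replicate 2, no member was past the test in d4 ENR, whereas without WT d4 ENR replicate 3 there were 13 higher (8.12%, against 6.47% on the rest of chromosome 12 and 5.81% of all) and 18 lower (11.2%, against 5.90 and 4.66%). Without WT d4 ENR replicate 1 there were 10 higher (5.05%, against 5.99% of all) and 28 lower (14.1%, against 4.90%). The lower members of d4 ENR included introns of Asap2 (2 members) and Mboat2 (2 members), the promoter between Trappc12 and Eipr1, an intron of Slc26a3, the chloride-bicarbonate exchanger of colonocytes, and an intron of Etv1, an ETS factor gene. At the Slc26a3 intron (chr12:31428391-31429325) the values were 102, 94.4 and 137 in WT d4 ENR and 58.1 and 65.4 in AHR KO d4 ENR (log2 -0.83 ± 0.17 SE, limma adjusted p = 0.0323). At the Etv1 intron (chr12:38788227-38789771) they were 102, 92.9 and 94.8, and 61.9 and 58.9 (log2 -0.68 ± 0.14 SE, limma adjusted p = 0.0288). Before normalisation the groups overlapped at both. Pileup was 36.5, 38.2 and 74.4 in WT against 41.6 and 56.8 at Slc26a3, and 36.8, 37.6 and 52.4 against 44.2 and 51.2 at Etv1. Slc26a3, Etv1 and Mboat2 were covered by more bases in all AHR KO d4 ENR libraries, as were 54.4% of all protein-coding genes with a peak. Asap2 was not separated. Besides the Prkar2b promoter, the higher members were an intron of Atxn7l1, the first exon region of Ifrd1 and an element at chr12:35481662-35482934, 52.7 kb from the Ahr start. The last had 46.2, 38.5 and 61.9 in WT d4 ENR and 97.8 and 77.0 in AHR KO d4 ENR (log2 0.86 ± 0.18 SE, limma adjusted p = 0.0305).

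No member, and none of all regions (0%), passed the limma test for a genotype effect that differed between the media, with 33 members (20.6%) and 14.1% of all regions at an unadjusted p under 0.05. Without WT d4 ENR replicate 1, 5 of 198 members passed it (2.53%, against 1.78% of all regions), and without replicate 3 of that group 3 of 160 did (1.88%, against 339 of 28309).

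Of 62 genes of the segment listed by function, 58 had a peak. Ahr, Prkar2b and Bzw2 (5.17% of the 58) were covered by more bases in every AHR KO than in every WT library in both media, against 6.54% of all 17290 protein-coding genes with a peak. Klf11, the gene of a zinc finger factor, was covered less (1.72%, against 0.0289% of all genes). Bzw2 had 2902 and 3169 bp in WT WENR, 3429, 3711 and 4066 bp in AHR KO WENR, 1582, 1841 and 1924 bp in WT d4 ENR and 2123 and 2027 bp in AHR KO d4 ENR. The Klf11 difference was small, with 1598 and 1607 bp against 1531, 1526 and 1576 bp in WENR and 1867, 1642 and 1630 bp against 1515 and 1611 bp in d4 ENR. No gene of the list had an adjusted p under 0.05, and none in the genome had (smallest 0.304). Without a WT WENR library, or without AHR KO WENR replicate 1, 5 to 8 list genes were covered more, and without AHR KO d4 ENR replicate 1 there were 2 covered less. No share over all genes is given for these counts.

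By function, none of the 6 solute transport and mucus genes was covered more or less in both media, and 2 were covered less in WENR, where 11.1% of all protein-coding genes with a peak were. These were Slc26a4, with 3198 and 3222 bp against 2432, 2530 and 2362 bp in AHR KO, and Scin, which encodes an actin-severing protein. Slc26a3 had 6681 and 5838 bp against 5921, 5345 and 5500 bp in WENR, where the groups overlapped, and 5681, 6345 and 8084 bp against 8573 and 8739 bp in d4 ENR. Agr2, a disulphide isomerase gene of mucus-secreting cells, had 3898 and 3672 bp against 3652, 4045 and 5489 bp in WENR and 2595, 2813 and 3066 bp against 2997 and 2860 bp in d4 ENR, with overlap in both. Of 14 genes of transcription factors and their regulators with a peak, 7 were covered more and 1 less in d4 ENR, where 0.237% of all genes were covered less, and 2 were covered less in WENR. Grhl1, a grainyhead-like factor gene of epithelia, had 1361, 1555 and 1673 bp against 1896 and 2118 bp in d4 ENR, and Etv1 had 2169, 1732 and 2429 bp against 2765 and 3271 bp. Neither was separated in WENR. Id2 had 2227 and 2337 bp against 2106, 1999 and 2260 bp in WENR and 1435, 1604 and 1796 bp against 1833 and 1743 bp in d4 ENR. Twist1 was covered by 1500 and 1737 bp against 1226, 1159 and 1859 bp in WENR, and by 0, 599 and 362 bp against 0 and 305 bp in d4 ENR. Of 15 genes of growth, adhesion and signalling, 6 were covered more in d4 ENR and of 22 housekeeping genes 15 were. Over the whole list 15.5% of the genes were covered less in WENR, and 51.7% were covered more in d4 ENR, against 54.4% of all protein-coding genes with a peak.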

How the data were processed

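Peak lists of 10 ATAC-seq libraries were used. Per the file headers and the study's methods, the authors aligned reads to GRCm38 and ran MACS2 2.2.7.1 on every library separately, in broad mode at a q-value cutoff of 0.1, from paired fragments and with no control library. The deposited values per peak are a pileup signal (mean fragment coverage), a fold enrichment over local background, and -log10 p- and q-values. The pileup signal is not scaled for depth, and no reads or counts per region were used.

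Peaks sharing 1 bp were merged, and a library's pileup in a region was averaged over its peaks by length. The segment, its members and the gene lists were chosen with earlier results of these data known. Regions with a peak in all 10 libraries were compared with limma 3.58.1 (R 4.3.3) on log2 pileup, quantile-normalised, with a mean for each of the 4 groups, a trended prior and Benjamini-Hochberg adjustment over all 28205 regions at 0.05. On simulated data with 200 altered regions, 100% of changes of 1 and of 1.5 on the log2 scale were recovered, with 14 false calls. The simulated noise was normal and independent, with the median spread given to every region. It lacked regions and libraries of larger spread, so it does not give the recovery in the real data. This test needs a peak everywhere, so absent members were described by presence. The labels do not tie libraries to separate mice, so p-values measure only the spread between these samples, which may be technical.

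Genes and exons came from GENCODE M21 and sequence from the GRCm38 reference. A promoter reached from 1 kb before to 100 bp after a start. Named were members at Ahr with a peak in at least 5 libraries, members confined to a genotype in both media, up to 8 per direction past the limma test, and list genes separated in both media, with Slc26a3, Agr2, Id2, Klf11, Grhl1, Etv1 and Twist1 in any case; members past the test in d4 ENR were added after their values were seen. Alternatives were lists of equal length, stricter peaks, 50% overlap, 5 and 10 Mb flanks, other scalings, replicate blocks and leaving out each library; leaving out repeated sequence was chosen after seeing the data.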

Additional observations from a re-analysis of the deposited data

Results flagged for a closer look

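The element at chr12:35481662-35482934, 52.7 kb from the Ahr start, was ordered oppositely by genotype in the media, but in WENR the difference was within its error. In WENR its normalised pileup was 96.2 and 91.1 in WT and 87.6, 82.4 and 82.6 in AHR KO, lower in each of the 3 AHR KO libraries (mean log2 difference -0.15 ± 0.18 SE, limma unadjusted p = 0.403). In d4 ENR it was 46.2, 38.5 and 61.9 in WT and 97.8 and 77.0 in AHR KO, higher in both. The genotype effect differed by 1.01 ± 0.25 SE on the log2 scale between d4 ENR and WENR, and this difference did not pass the test over all regions (limma adjusted p = 0.155).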

How the results depend on the processing

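Directions held at all 6 members past the limma test in the mean of both media under every alternative run, and they stayed past it with median centring (log2 values from -1.24 to 0.84) and a pseudocount of 1. The counts moved more than the directions. With lists shortened to 33433 peaks there were 7 AHR KO-only members in WENR and 10 WT-only in d4 ENR, with the shares given above. In both media 4 of 343 members were WT-only (1.17%, against 0.315% on the rest of chromosome 12 and 0.0193% on other chromosomes). The covered bases at Ahr then differed by 699 (exact permutation p = 0.06) and at Id2 by -219. With peaks at a -log10 q of at least 5 there were 9 WT-only members in WENR (2.11%, against 2.34% on the rest of chromosome 12). In both media there was 1 (0.218%, against 0.0474%). The limma test then gave 0 higher in the mean of both media. In d4 ENR it gave 1 higher and 6 lower of 93, against 174 and 116 of 16229 regions. With 50% of a region covered there were 42 AHR KO-only members in d4 ENR (10.6%, against 7.97% on the rest of chromosome 12 and 8.80% on other chromosomes). In both media 1 was WT-only (0.158%, against 0.0351% on the rest of chromosome 12). Within 5 Mb of Ahr there were 15 AHR KO-only and 9 WT-only members in WENR, 14 and 3 in d4 ENR, 1 AHR KO-only in both media, and in the limma test 1 higher and 1 lower in the mean of both media and 5 lower in d4 ENR. Within 10 Mb these were 17 AHR KO-only in WENR, 17 in d4 ENR and 2 in both media. The limma test there gave 1 higher, 1 lower and 6 lower in d4 ENR. Fewer members were counted by construction, and the counts of genotype-only members are given without shares. The limma shares within 5 Mb were 1.06% higher and 1.06% lower, against 0.0851 and 0.181% of all regions. In d4 ENR 5.32% were lower, against 1.26%. Within 10 Mb the 3 shares were 0.833, 0.833 and 5.00%. Median centring gave 8 lower in the mean of both media (5.00%, against 0.372% of all regions). It gave 1 higher in WENR (0.625%, against 0.0213%) and 1 higher in d4 ENR (0.625%, against 0.425%). Pileup times length gave 0 higher and 2 lower in the mean of both media (1.25% lower, against 0.131% of all regions). In d4 ENR it gave 2 higher (1.25%, against 1.63%) and 4 lower (2.50%, against 0.564%). The effect differed between the media at 1 member (0.625%, against 0.0390%). Fold enrichment gave 1 higher (0.625%, against 0.0177% of all regions) and 0 lower in the mean of both media. In d4 ENR it gave 10 higher (6.25%, against 3.16%) and 4 lower (2.50%, against 2.63%), so no excess of lower members remained. Another setting took regions in at least 5 libraries, with absent peaks set to the lowest pileup. Of the 374 members then tested, it gave 7 higher (1.87%, against 0.125% of all regions) and 13 lower (3.48%, against 0.108%) in the mean of both media. On the rest of chromosome 12 these shares were 0.537 and 0.806%. In WENR it gave 2 higher (0.535%, against 0.0191% of all regions) and 2 lower (0.535%, against 0.0486%). Those past the limma test in the mean of both media included the members at chr12:20614494, chr12:25308911 and chr12:35376157. The Prkar2b promoter, the Asap2 promoter and the member at chr12:20920208 were no longer past it under that setting. Without members of repeated sequence, an alternative chosen after seeing the data, 2 members were AHR KO-only in both media and 1 was lower in the mean of both media. For genes, the body alone left 0 list genes covered less, and 20 kb on each side gave 5 covered more and 0 less, with differences of -114 bp at Id2 and 830 bp at Klf11. Id2 also changed sign when single libraries were left out (-36.2 to 54.1 bp). Apart from repeated sequence and the narrower flanks, the cause of these moves was not tested.

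Leaving out each library in turn gave 27 to 43 AHR KO-only and 14 to 26 WT-only members in WENR, 27 to 68 and 6 to 21 in d4 ENR, and 5 to 13 and 2 to 3 in both media. The limma test then gave 0 to 7 higher and 1 to 20 lower members in the mean of both media, 0 to 2 and 0 to 1 in WENR, 0 to 13 and 0 to 28 in d4 ENR, and 0 to 5 whose effect differed between the media. Where 1 library of a group was left, it was assumed to vary like the other groups. These ranges are given without shares over all regions. The covered bases at Ahr differed by 2457 to 2929, and 3 to 8 list genes were covered more and 1 to 2 less.

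The labels share replicate numbers between groups, and same-numbered libraries correlated from -0.12 to 0.34 in their deviations from the group means, so the numbers were not taken as pairs. With a replicate block as a fixed term, 2 members were higher and 4 lower in the mean of both media, 5 and 13 in d4 ENR. With the organoid line as a random block (correlation -0.066), 2 were higher and 5 lower. Neither block moved a count of members by more than 1.5 times. The number of libraries and the lack of counts limit precision, since a peak just under the calling threshold counts as absent.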
